A study of Arabidopsis thaliana with 82 samples.

Results

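The hypocotyl, the seedling stem between root and cotyledons, was followed here through its alpha-expansins. The 10 genes are EXPA1 (AT1G69530), EXPA3 (AT2G37640), EXPA4 (AT2G39700), EXPA5 (AT3G29030), EXPA6 (AT2G28950), EXPA8 (AT2G40610), EXPA9 (AT5G02260), EXPA10 (AT1G26770), EXPA11 (AT1G20190) and EXPA15 (AT2G03090), found by these locus identifiers in the library-normalised table. They are 10 of 27416 genes listed there and 10 of its 25 alpha-expansin genes, and all 10 passed the filter on low values that left 20766 genes to test. The study followed the poly(A) transcriptome of Arabidopsis thaliana hypocotyls while cut pieces were grafted or kept apart, in 82 libraries that make 41 groups of 2 biological replicates. All seedlings were of the Col-0 ecotype and 7 days old when treated, kept at 20 °C with 8 h of light a day, and all had lost 1 cotyledon, the intact ones included. Intact hypocotyls (18 libraries) were not cut and were sampled at 0, 6, 12, 24, 48, 72, 120, 168 and 240 h. Grafted hypocotyls were cut across, and the upper piece of 1 seedling was joined to the lower piece of another. Separated hypocotyls were cut and left unjoined. Tissue above the cut (top) and below it (bottom) was sampled apart in both, from 6 to 240 h, with 16 libraries for each of the 4 kinds of tissue. The sources used here do not say how many seedlings went into a library.

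Expansins are small secreted proteins that loosen plant cell walls without cutting the wall polymers, and so let walls extend under the pressure of the cell. Alpha-expansins act best at acid pH, which plasma membrane proton pumps such as AHA1 and AHA2 provide. The family is large, and its members differ in where and when they are expressed: several follow auxin, brassinosteroid or gibberellin and the elongation of the hypocotyl, while others belong to root hairs or to the outgrowth of lateral roots.

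Levels are given as x, the deposited library-normalised value times 1 constant that makes the median library sum to 1 M (1e6). A level of x of 1 stood for 5.78 to 22.0 reads in the 72 libraries whose depth could be estimated, at 7.53 to 20.2 M reads a library, and a gene listed at 0 lies below that, not at no expression. The 2 libraries of a group correlated at 0.971 to 0.993 over the tested genes. Differences were tested with limma on log2(x + 1) within each time and averaged over the times of 3 windows (6, 12 and 24 h; 48 and 72 h; 120, 168 and 240 h), so that both sides come from the same time after treatment. A gene is called where its p, adjusted over the 20766 tested genes by the Benjamini-Hochberg method, lies under 0.05, the value after ± is a standard error, and a fold understates the change of low genes because of the pseudocount of 1. In bulk tissue, fewer cells of a type and less RNA per cell cannot be told apart.

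Root hair markers, 8 genes including RHD6 and RSL4, summed to x of at most 0.324 in intact hypocotyls from 6 h on, and the shoot meristem genes WUS and CLV3 were listed at 0 there in all windows. The epidermis and guard cell list of 8 genes, among them ATML1 and PDF1, summed to 280.1 to 554 in intact hypocotyls at 6 to 24 h and to 77.0 to 131.5 in separated bottoms. In the same window it summed to 103.4 to 172 in grafted bottoms, 172 to 239.5 in grafted tops and 152 to 233 in separated tops. None of the 4 cut tissues overlapped with the intact hypocotyl for this sum, but its members went both ways: of 7 tested, 2 were called higher and 3 lower in separated bottoms at 6 to 24 h, and 5 higher and 2 lower there at 120 to 240 h. The part of these cells in the expansin levels was not tested.

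The 10 genes are scattered over chromosomes 1, 2, 3 and 5 of the RefSeq TAIR10.1 reference, from which the sequences and positions come. Their coding sequences share 63.4% to 79.7% of aligned bases over 45 pairs, with a median of 70.5%, and no pair shares an unbroken run over 33 bases. EXPA1 and EXPA10 are the closest pair at 79.7%, and EXPA4 and EXPA6 follow at 78.2%. The 250 bases before the annotated start are shown for the 5 genes whose levels set the patterns described here, 5′ to 3′ on the gene's own strand, with the auxin response motif TGTCTC in capitals wherever it occurs. EXPA4 lies at chr2:16543832-16545746 on the minus strand and its upstream stretch at chr2:16545747-16545996.
EXPA4: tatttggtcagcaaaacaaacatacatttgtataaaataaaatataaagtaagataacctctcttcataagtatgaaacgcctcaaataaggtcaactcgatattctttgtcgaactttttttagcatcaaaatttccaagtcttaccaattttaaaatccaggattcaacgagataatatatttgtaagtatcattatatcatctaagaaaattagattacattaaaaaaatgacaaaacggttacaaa
EXPA10 lies at chr1:9259432-9261313 on the plus strand, with chr1:9259182-9259431 upstream of it.
EXPA10: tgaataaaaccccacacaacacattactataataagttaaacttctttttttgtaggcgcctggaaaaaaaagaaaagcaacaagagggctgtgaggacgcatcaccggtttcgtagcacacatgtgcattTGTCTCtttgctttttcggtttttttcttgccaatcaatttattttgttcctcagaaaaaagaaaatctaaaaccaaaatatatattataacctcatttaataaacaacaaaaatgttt
EXPA1, its closest relative among the 10, lies at chr1:26141726-26143538 on the plus strand, with chr1:26141476-26141725 upstream.
EXPA1: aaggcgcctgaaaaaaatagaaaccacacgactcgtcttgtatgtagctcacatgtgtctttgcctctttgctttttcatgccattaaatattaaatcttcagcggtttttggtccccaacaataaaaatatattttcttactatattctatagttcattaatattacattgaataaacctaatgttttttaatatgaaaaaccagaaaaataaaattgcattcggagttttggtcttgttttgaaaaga
EXPA5 lies at chr3:11011262-11013451 on the minus strand, with chr3:11013452-11013701 upstream.
EXPA5: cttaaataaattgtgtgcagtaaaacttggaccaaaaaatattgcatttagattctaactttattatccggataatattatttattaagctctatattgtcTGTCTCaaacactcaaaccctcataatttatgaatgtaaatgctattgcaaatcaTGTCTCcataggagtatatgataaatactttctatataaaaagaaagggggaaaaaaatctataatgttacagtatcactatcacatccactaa
EXPA15 lies at chr2:916806-918671 on the minus strand, with chr2:918672-918921 upstream.
EXPA15: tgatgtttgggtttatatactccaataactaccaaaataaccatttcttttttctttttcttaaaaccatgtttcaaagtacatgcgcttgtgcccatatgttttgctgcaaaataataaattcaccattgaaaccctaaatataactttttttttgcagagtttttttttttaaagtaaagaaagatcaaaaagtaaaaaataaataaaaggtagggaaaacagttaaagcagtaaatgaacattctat
These stretches were compared only by unbroken shared runs, which miss likeness with mismatches. EXPA1 and EXPA10 show such likeness in the bases just before their longest run. The longest run that EXPA1 and EXPA10 share within 250 bases before and 50 after the start is 14 bases, ctctttgctttttc, and it begins 186 bases before the start in EXPA1 and 116 before it in EXPA10. In that window of 300 bases TGTCTC, searched on both strands, was found in 4 of the 10 genes, beside 14.2% of 27443 nuclear protein-coding genes. EXPA5 held it at -149 and -94, EXPA10 at -119, EXPA6 at -42 and EXPA8 at 40, the last 2 on the reverse strand. The related auxin response motif TGTCGG was in none of the 10 (5.12% of all) and the G-box CACGTG in none (7.68%). The HD-ZIP core AATNATT was in 2, EXPA6 and EXPA9 (33.8%). A match describes letters, not a working site.

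**Figure D1:**
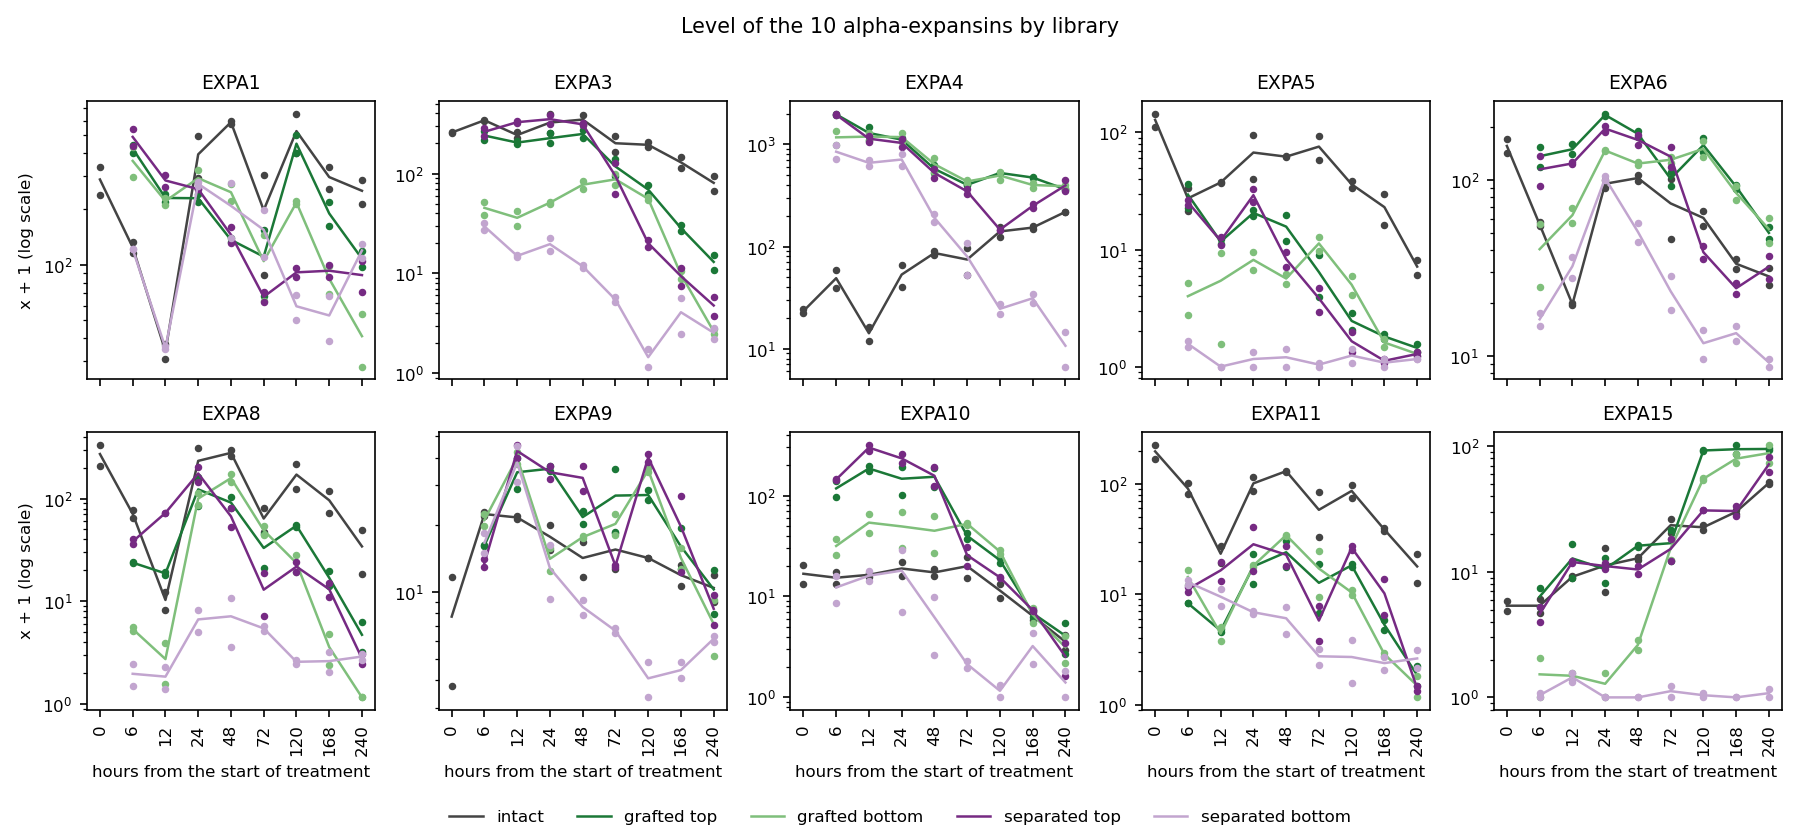
Level of each gene as x + 1 on a log axis against hours from the start of treatment (times are evenly spaced, not to scale), in intact hypocotyls and in tops and bottoms of grafted and separated ones. Points are single libraries and lines join the means of 2; EXPA4 stands above the intact level in every grafted tissue, and EXPA15 stays near 1, that is x near 0, in separated bottoms.

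At 6 h after cutting, EXPA4 held most of the summed level of these alpha-expansins, which it did not in intact hypocotyls. On the per-length scale (x per length, the deposited table that is also divided by gene length, scaled in the same way), EXPA4 made up 1.64% of the summed level of the 10 in intact hypocotyls at 0 h and 5.96% at 6 h. At 6 h after cutting it made up 66.5% in grafted tops, 69.9% in grafted bottoms, 64.3% in separated tops and 80.7% in separated bottoms. The intact hypocotyl shared its level more evenly: at 0 h EXPA8 (19.8%), EXPA3 (19.4%), EXPA1 (18.8%) and EXPA11 (16.4%) led. At 48 h the EXPA4 share was smaller, at 38.6% in grafted tops, 47.5% in grafted bottoms and 35.8% in separated tops. By 240 h it was back at 56.1%, 66.5% and 66.1% in these tissues, and at 32.3% in intact hypocotyls. In separated bottoms at 72 h EXPA1 led with 52.9% against 31.0% for EXPA4.

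The summed level per length of the 10 genes stood above intact in every cut tissue at 6 h, but did not follow the EXPA4 share from tissue to tissue. At 6 h it was 933 and 928 in the 2 intact libraries, 3375 and 3363 in grafted tops and 3338 and 3530.4 in separated tops, with 1625 and 2165 in grafted bottoms and 1352 and 1036 in separated bottoms. Tops stood highest, and the lower of the separated bottom libraries was still above both intact ones. By 120 h the sum was 128 and 92.4 in separated bottoms against 1269 and 1187 in grafted bottoms and 1199 and 1630.0 in intact hypocotyls. At 240 h EXPA1 made up 78.4% of what was left in separated bottoms, where EXPA4 had come down to 6.80%.

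**Figure D2:**
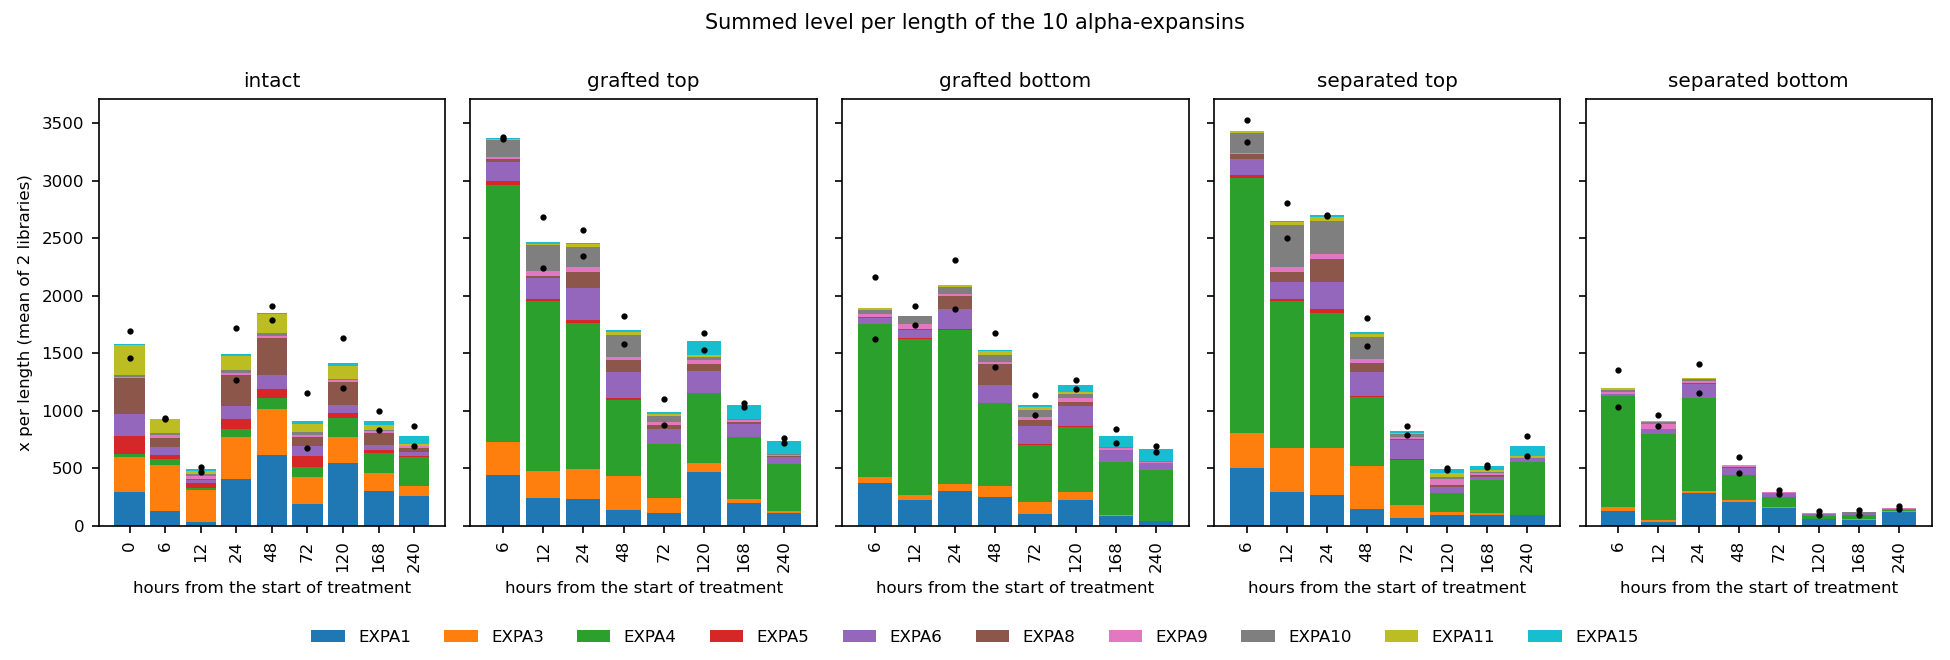
Summed level per length of the 10 genes by tissue and time, each bar the mean of 2 libraries split by gene, with dots for the total of each library; the axis starts at 0. The EXPA4 share fills most of every bar at 6 h except in intact hypocotyls, and the bars of separated bottoms shrink to 110.0 at 120 h.

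EXPA4 rose in all 4 cut tissues within 6 h. Its x was 38.6 and 57.3 in the intact libraries at 6 h, 1946 and 1986 in grafted tops and 1980.5 and 1924 in separated tops. It was 974 and 1366 in grafted bottoms and 981 and 713 in separated bottoms. All 8 cut libraries stood far above both intact ones, with group means 17.7 to 41 times the intact mean, and both kinds of top stood above both kinds of bottom. Over 6 to 24 h the log2 difference from intact was 5.43 ± 0.16 in grafted tops, 5.34 ± 0.16 in separated tops, 5.17 ± 0.16 in grafted bottoms and 4.48 ± 0.16 in separated bottoms (limma, adjusted p from 8.91e-32 to 1.19e-28); these comparisons share the intact libraries.

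EXPA4 was called higher in grafted than in separated bottoms at each time from 12 h on. From 48 h on separated bottoms fell further behind. In joined hypocotyls EXPA4 settled at x of 366 and 358 in tops and 377 and 401 in bottoms at 240 h, and it was called higher than intact at 8 of 8 times in both. In separated bottoms it fell to 26.5 and 20.6 at 120 h and 5.66 and 13.7 at 240 h, below the intact values of 124 and 155 and 218 and 216. In separated tops it dipped to 146 and 145 at 120 h, within reach of the intact pair, and came back to 443 and 348 at 240 h. Over 120 to 240 h grafted bottoms exceeded separated bottoms by 4.44 ± 0.16 (log2, limma, adjusted p = 7.92e-29). Separated tops exceeded separated bottoms by 3.64 ± 0.16 (adjusted p = 5.84e-26), while grafted tops and bottoms differed by 0.08 ± 0.16 (adjusted p = 0.767). Over 48 to 72 h separated bottoms were still 0.61 ± 0.19 above intact, a call that was lost without intact 72 h replicate 2 (0.38, adjusted p = 0.11) or without separated bottom 72 h replicate 1 (0.35, adjusted p = 0.14), after quantile normalisation (0.37) or in a fit of these 2 tissues alone (adjusted p = 0.17).

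EXPA10, described for its part in leaf and petiole growth, rose on the shoot side of the cut. At 12 h its x was 16.1 and 14.6 in intact hypocotyls, 195 and 174 in grafted tops and 277 and 318 in separated tops. It was 41.8 and 64.0 in grafted bottoms and 17.0 and 13.1 in separated bottoms. Tops were highest, grafted bottoms intermediate and not overlapping with intact, and separated bottoms overlapped with intact. Over 6 to 24 h tops exceeded intact by 3.11 ± 0.28 (grafted) and 3.69 ± 0.28 (separated) on the log2 scale, and grafted bottoms by 1.34 ± 0.28 (limma, adjusted p = 2.11e-13, 8.00e-16 and 9.90e-05). Separated bottoms differed from intact by -0.26 ± 0.28 (adjusted p = 0.463). The rise was transient: at 168 h both grafted tissues, at 5.26 and 6.39 in tops and 4.45 and 6.72 in bottoms, lay near the intact 4.86 and 5.99, and in separated bottoms at 120 h x was 0.324 and 0.

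Averaged over 6 to 24 h, EXPA6 and EXPA1 were also higher than intact in tops and in joined bottoms, and neither mean was called in separated bottoms. EXPA6 was at x of 18.4, 54.8 and 99.3 (lowest, median and highest of 6 libraries) in intact hypocotyls at 6 to 24 h and at 118, 155 and 236 in grafted tops. In separated bottoms it was at 13.8, 31.3 and 104, a range that overlaps with the intact one. Grafted tops exceeded intact by 1.83 ± 0.15 (log2, limma, adjusted p = 5.22e-15) and separated tops by 1.57 ± 0.15, whereas separated bottoms differed by -0.33 ± 0.15 (adjusted p = 0.058). Grafted bottoms, at 0.57 ± 0.15, lay between them, and at 0.38 without grafted bottom 6 h replicate 1. At single times of this window EXPA6 was called higher than intact in grafted bottoms at 12 h alone. In separated bottoms it was called lower at 6 h and higher at 12 h (0.70 on the log2 scale). At 120 to 240 h EXPA6 was higher than intact in both grafted tissues, by 1.22 ± 0.15 in tops and 1.17 ± 0.15 in bottoms, and -1.77 from intact in separated bottoms.

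EXPA1, known from guard cells and lateral roots, varied with time in intact hypocotyls. Its x there was 132 and 114 at 6 h, 36.2 and 29.9 at 12 h and 293 and 493 at 24 h, so the mean at 24 h was 11.9 times that at 12 h. The cut tissues other than separated bottoms did not show the low point at 12 h: EXPA1 was at 238 and 218 in grafted tops, 229 and 209 in grafted bottoms and 262 and 305 in separated tops. Separated bottoms, at 33.9 and 35.1, overlapped with intact. The direction against intact therefore turned inside the first window, from 2.76 (log2) at 12 h to -0.74 at 24 h in grafted tops, and the 6 to 24 h mean of 1.26 ± 0.22 (adjusted p = 2.31e-06) rests on 6 and 12 h. EXPA8 fell to x of 11.3 and 7.28 in intact hypocotyls at 12 h against 156 and 308 at 24 h, EXPA11 to 26.2 and 18.4 against 84.8 and 115 and EXPA6 to 18.4 and 18.9 against 99.3 and 88.7. The sources used here do not give the clock time at which treatment started. Sampling times other than 6 and 12 h lie whole days apart, so only 6 and 12 h differ from the rest in time of day. The part of time of day in these low values of intact hypocotyls was not tested.

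EXPA5, EXPA11 and EXPA8, which follow brassinosteroid or auxin in growing tissue, were lower than intact in both kinds of bottom at 6 to 24 h, and EXPA5 and EXPA11 in both kinds of top as well. EXPA5 was at x of 20.5, 36.4 and 93.8 (lowest, median and highest of 6) in intact hypocotyls at 6 to 24 h, at 10.1, 19.5 and 35.4 in grafted tops and at 0.566, 4.98 and 8.58 in grafted bottoms. In separated bottoms it was at 0, 0.162 and 0.647 and was listed at 0 in both libraries at 12 h. Every bottom library, joined or not, lay below every intact one. The log2 difference from intact was -1.05 ± 0.25 in grafted tops, -3.01 ± 0.25 in grafted bottoms and -5.02 ± 0.25 in separated bottoms (limma, adjusted p = 2.72e-04, 1.89e-14 and 1.40e-22). At single times of this window EXPA5 was called lower at 12 and 24 h in both kinds of top, but not at 6 h.

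EXPA11 was lower than intact in all 4 cut tissues in all 3 windows. At 6 h its x was 100.3 and 79.2 in intact hypocotyls, 7.28 and 7.28 in grafted tops, 11.2 and 15.5 in grafted bottoms, 10.7 and 9.55 in separated tops and 12.5 and 11.2 in separated bottoms. None of the 8 cut libraries reached the intact pair. Over 6 to 24 h the log2 difference from intact ran from -2.76 ± 0.26 in grafted tops to -1.83 ± 0.26 in separated tops (adjusted p = 6.43e-13 and 3.83e-08), and grafted tops and bottoms differed by -0.25 ± 0.26 (adjusted p = 0.414). It was lower at 8 of 8 times in grafted tops, grafted bottoms and separated bottoms, and at 7 of 8 in separated tops, the exception being 12 h.

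EXPA8 was low at 12 h in intact hypocotyls and in both kinds of bottom, and at 24 to 120 h it was higher in grafted than in separated bottoms. At 12 h its x was 0.566 and 2.91 in grafted bottoms and 0.405 and 1.29 in separated bottoms, with the intact pair at 11.3 and 7.28. At 24 h it was 112 and 85.9 against 4.05 and 7.28, with 156 and 308 in intact hypocotyls, and at 48 h 171 and 143 against 9.71 and 2.59, with 258 and 297 in intact hypocotyls. Joined and separated bottoms did not overlap at any time from 24 to 120 h. Over 48 to 72 h the difference was 3.92 ± 0.33 on the log2 scale (limma, adjusted p = 3.36e-14), whereas over 120 to 240 h it was 0.75 ± 0.27 (adjusted p = 0.0129), a call lost without grafted bottom 168 h replicate 2 (0.58, adjusted p = 0.071), with a pseudocount of 0.25 (0.59) or after quantile normalisation (0.11). At 240 h both grafted bottom libraries were at 0.162, below the separated 2.10 and 1.70, by -1.32 ± 0.47 (log2, adjusted p = 0.0164).

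At 6 to 24 h EXPA3 was far below intact in bottoms and at or little below it in tops, and by 240 h it was far below intact in all cut tissues. At 24 h its x was 252 and 394 in intact hypocotyls, 251 and 199 in grafted tops and 385 and 314 in separated tops. It was 49.0 and 51.1 in grafted bottoms and 15.7 and 21.5 in separated bottoms. Separated tops overlapped with intact, grafted tops lay just below it and both bottoms far below. Over 6 to 24 h the log2 difference from intact was -2.78 ± 0.16 in grafted and -3.86 ± 0.16 in separated bottoms (limma, adjusted p = 1.46e-19 and 3.14e-25), and 0.06 ± 0.16 in separated tops (adjusted p = 0.783). Grafted tops were at -0.42 ± 0.16 (adjusted p = 0.0241), a call lost without any of 4 of the 12 libraries, with a pseudocount of 0.25 or after quantile normalisation (-0.33). Grafted bottoms climbed to 97.3 and 75.6 at 72 h while separated bottoms sank to 4.77 and 4.13, and at 240 h grafted tops, the highest of the cut tissues, stood at 14.3 and 9.71 against 93.9 and 65.4 in intact hypocotyls.

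EXPA15 rose late, and not in separated bottoms. In intact hypocotyls it rose from x of 3.88 and 4.86 at 0 h to 51.1 and 48.8 at 240 h. In grafted bottoms it was 0 and 0.566 at 24 h, 1.86 and 1.38 at 48 h, 11.4 and 17.4 at 72 h and 52.8 and 55.3 at 120 h. In separated bottoms both libraries were listed at 0 at 24, 48 and 168 h, and no separated bottom library passed 0.566 at any time. Grafted bottoms thus went from below the intact level to above it between 48 and 120 h, when grafted tops were at 92.7 and 90.1, separated tops at 29.9 and 29.8 and intact hypocotyls at 20.6 and 22.6. Over 120 to 240 h grafted tissues exceeded intact by 1.53 ± 0.17 (tops, log2) and 1.15 ± 0.17 (bottoms; limma, adjusted p = 8.08e-11 and 1.06e-07). Separated tops differed from intact by 0.31 ± 0.17 (adjusted p = 0.0915), a difference that was called with a pseudocount of 5 (0.28).

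EXPA9 had the narrowest range of the 10 on the log2 scale. Over all 82 libraries its x ran from 2.35 to 44.7. Averaged over the first window no cut tissue was called against intact, although both tops were with a pseudocount of 5 (log2 differences of 0.36 and 0.37). At single times of that window EXPA9 was called higher than intact in grafted tops at 24 h, grafted bottoms at 12 h and separated tops at 12 and 24 h. In separated bottoms it sank to 2.35 and 3.80 at 120 h, against 33.4 and 34.8 in grafted bottoms, 37.3 and 40.6 in separated tops and 13.2 and 13.1 in intact hypocotyls. Grafted and separated bottoms differed over 120 to 240 h by 1.65 ± 0.19 on the log2 scale (limma, adjusted p = 1.80e-10).

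Counted over the 10 genes, the comparisons with intact hypocotyls gave both directions in tops and grafted bottoms and, in the last window, 1 direction in separated bottoms. In the first window 4 genes were higher and 3 lower in grafted tops, where 62.5% of all tested genes were called (31.7% higher and 30.8% lower). Grafted bottoms had 4 higher and 5 lower, beside 20.4% and 28.4% of all genes (48.8% in all). Separated tops had 4 higher and 2 lower, beside 32% and 30.8% (62.8%), and separated bottoms 1 and 5, beside 24.3% and 30.4% (54.7%).

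In the 48 to 72 h window grafted tops had 4 higher and 5 lower, beside 31.5% and 26.8% of all genes (58.2% in all), and grafted bottoms 3 and 5, beside 20.3% and 26.5% (46.8%). Separated tops had 3 higher and 6 lower, beside 40.2% and 27.1% (67.3%), and separated bottoms 1 and 9, beside 27.8% and 28.5% (56.3%). The 1 higher in separated bottoms was EXPA4. All 10 were lower in separated bottoms at 120 to 240 h, with a median log2 difference of -3.52, where 32.4% and 31.2% of all genes were higher and lower (63.6% in all) and the median of all tested genes was 0. The 10 lower calls held when any 1 of the 12 libraries was left out. Their sizes depend on the pseudocount where x was low, as for EXPA3, EXPA5, EXPA8, EXPA10, EXPA11 and EXPA15. The endodermis markers were lower too: 7 of 7, among them CASP1 and MYB36, were lower than intact in separated bottoms in that window (median -4.90), with sums of 2.99 to 14.1 against 419 to 893 in intact hypocotyls and CASP5 at 0. They were also lower there at 48 to 72 h, 7 of 7 (median -2.52), and in grafted bottoms 7 of 7 were then higher than intact (median 2.87) and 6 of 7 lower at 120 to 240 h (median -1.79). Their part in the expansin levels was not tested. Grafted tops then had 3 higher and 5 lower, beside 30.6% and 24.7% of all genes (55.4%), grafted bottoms 3 and 5, beside 25.4% and 28.2% (53.6%), and separated tops 2 and 5, beside 44.7% and 26.7% (71.4%).

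**Figure D3:**
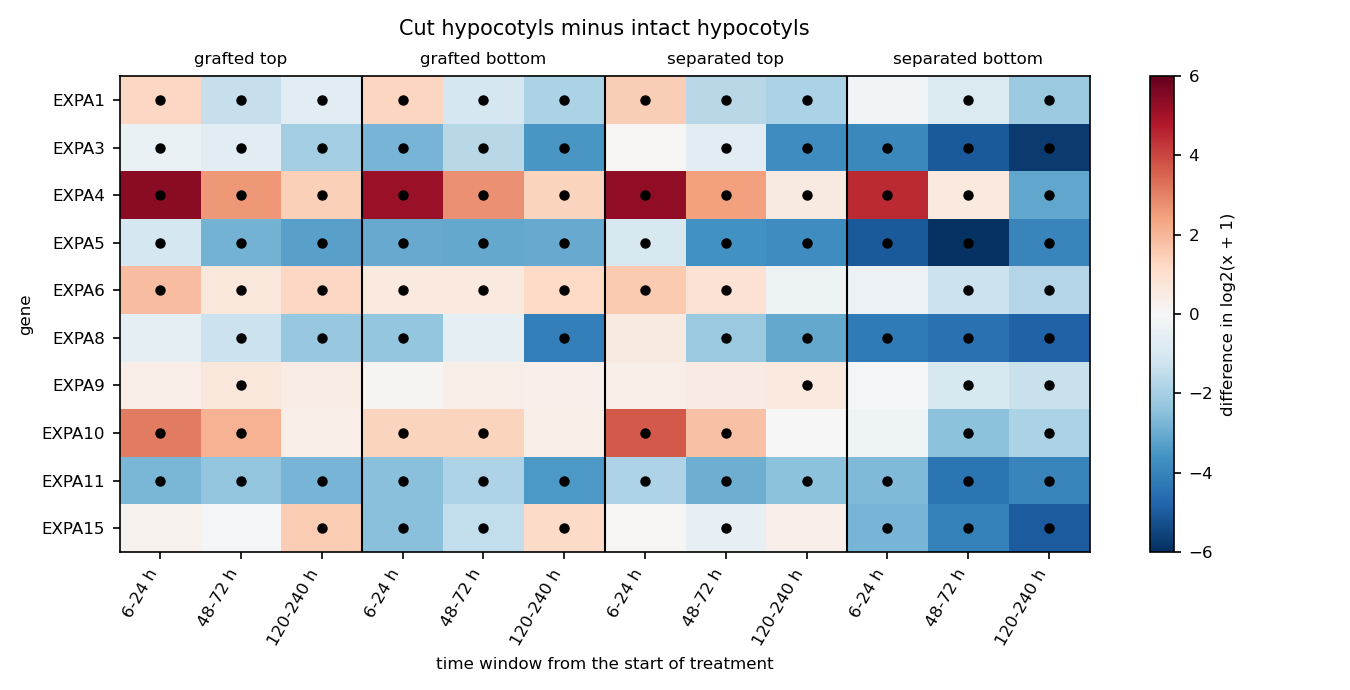
Difference in log2(x + 1) from intact hypocotyls for each gene (rows) in the 4 cut tissues and 3 time windows (columns), red for higher and blue for lower; black dots mark calls at an adjusted p under 0.05. EXPA4 is red in all columns except separated bottoms at 120 to 240 h, at -3.10, and the last column is blue for all 10 genes.

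Between the 2 sides of a graft, 6, 2 and 3 of the 10 genes were called in the 3 windows, while the share of all genes called fell from window to window. At 6 to 24 h 6 of the 10 were higher in grafted tops than in grafted bottoms and none lower, beside 64.8% of all tested genes called, 37.8% higher and 27% lower. They were EXPA15 (2.73 ± 0.17 on the log2 scale), EXPA3 (2.36 ± 0.16), EXPA5 (1.96 ± 0.25), EXPA8 (1.77 ± 0.27), EXPA10 (1.77 ± 0.28) and EXPA6 (1.26 ± 0.15; limma, adjusted p at most 4.46e-07). EXPA4 was at 0.27 ± 0.16 (adjusted p = 0.131) and at 1.09, called, after quantile normalisation. At 48 to 72 h 2 were higher and none lower (47.1% of all genes called, 27.6% higher and 19.5% lower), EXPA3 by 1.05 ± 0.20 and EXPA15 by 1.37 ± 0.21, and at 72 h taken alone none of the 10 was called, beside 26.4% of all genes. EXPA8, EXPA10 and EXPA11 had adjusted p of 0.0672, 0.0784 and 0.193 in that window, and EXPA8 and EXPA11 were called lower in tops, at -1.0 and -0.88 on the log2 scale, without grafted top 72 h replicate 1. With the replicate number as a block the 48 to 72 h call of EXPA8 was reached too, at an adjusted p of 0.039. EXPA11 was also called without grafted bottom 72 h replicate 2 (-0.85) and EXPA10, higher, without grafted bottom 48 h replicate 2 (1.03).

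EXPA8, EXPA3 and EXPA1 were higher in the tops than in the bottoms of grafts at 120 to 240 h, by 1.83 ± 0.27, 1.38 ± 0.16 and 1.23 ± 0.22 on the log2 scale (3 of 10, none lower, beside 23.6% of all genes called, 12.4% higher and 11.2% lower; limma, adjusted p = 1.33e-06, 9.93e-09 and 3.62e-05). EXPA1 was at x of 118 and 95.6 in tops and 53.0 and 27.1 in bottoms at 240 h, and EXPA3 at 14.3 and 9.71 and 1.78 and 1.46. The tops and bottoms did not overlap for either gene. EXPA11 was at 0.67 ± 0.26 (adjusted p = 0.0551); with the replicate number as a block, which pairs tops and bottoms of grafts by their numbers, it was called at an adjusted p of 0.022. It was also called without grafted bottom 240 h replicate 2 (0.78) or grafted top 240 h replicate 1 (0.77).

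Between the top and the bottom of separated hypocotyls most of the 10 genes were called in all 3 windows. Averaged over 6 to 24 h, all 10 genes were higher in tops (72% of all genes called, 40.4% higher and 31.6% lower). The differences ran from 4.80 ± 0.27 for EXPA8 and 4.08 ± 0.25 for EXPA5 down to 0.46 ± 0.19 for EXPA9. The EXPA9 call (limma, adjusted p = 0.031) was lost without any of 6 of the 12 libraries, at adjusted p from 0.06 to 0.15, and after quantile normalisation (0.38). At single times of this window EXPA9 and EXPA11 were called at 24 h alone, and EXPA1 and EXPA4 at 6 and 12 h alone. For EXPA11 both separated top libraries lay below both separated bottom ones at 6 h. At 48 to 72 h 9 were higher and EXPA1 lower (76.6% called, 47.2% higher and 29.4% lower). EXPA1 was at -0.79 ± 0.27 (adjusted p = 0.00738) and lost its call without separated bottom 48 h replicate 1 (-0.54) or 72 h replicate 2 (-0.58), or after quantile normalisation (-0.32). In the last window 8 were higher and none lower (79.6% called, 49.4% higher and 30.2% lower). EXPA15 and EXPA4 led there at 5.29 ± 0.17 and 3.64 ± 0.16, while EXPA1 and EXPA5 were not called. At 240 h taken alone 4 of the 10 were called, EXPA3, EXPA4, EXPA6 and EXPA15, all higher, beside 57.5% of all genes.

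**Figure D4:**
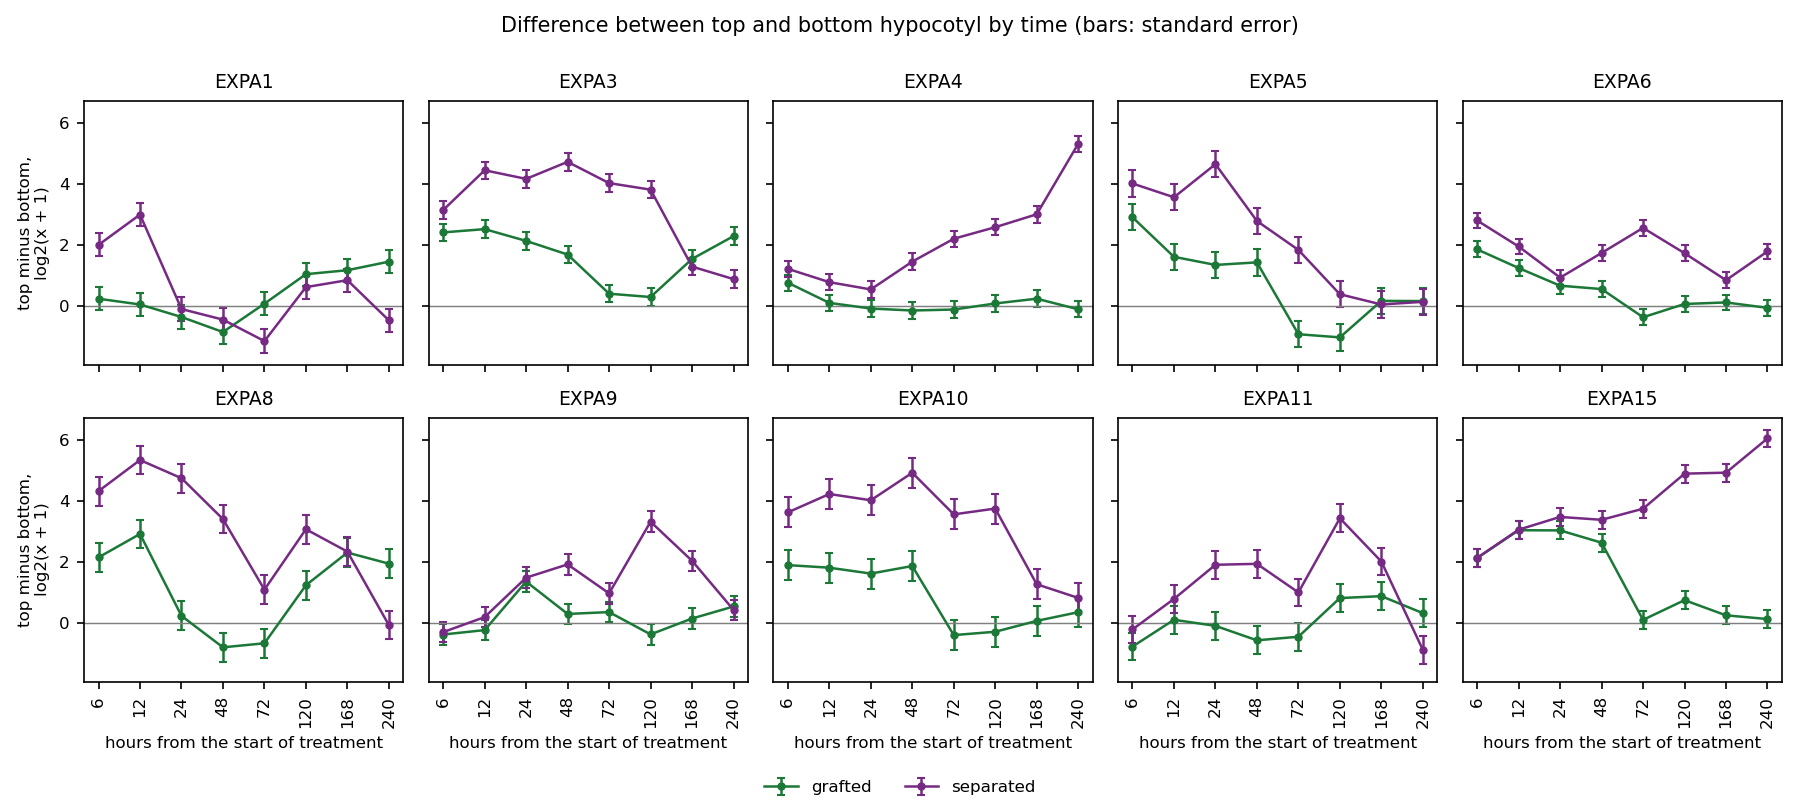
Top minus bottom in log2(x + 1) at each time for grafted and separated hypocotyls, 1 panel a gene; error bars are standard errors from limma and the grey line marks no difference. The grafted line returns to near 0 by 72 h for EXPA4, EXPA6, EXPA10 and EXPA15, while the separated lines of EXPA4 and EXPA15 climb to 5.32 and 6.04 at 240 h.

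The difference between those differences was tested directly. At 6 to 24 h top minus bottom was lower in grafted than in separated hypocotyls for 8 of the 10 genes (22% of all genes called, 11.6% lower and 10.4% higher), with EXPA8 at -3.03 ± 0.38, EXPA10 at -2.18 ± 0.40, EXPA5 at -2.12 ± 0.35, EXPA1 at -1.66 ± 0.31 and EXPA3 at -1.56 ± 0.23 on the log2 scale (limma, adjusted p at most 6.56e-05). The count was 5 without separated bottom 6 h replicate 2, since the calls of EXPA4, EXPA6 and EXPA11, at adjusted p of 0.0482, 0.0233 and 0.029, were lost. The EXPA4 call was lost without any of 15 of the 24 libraries, that of EXPA11 without any of 7 and that of EXPA6 without any of 6. Those of EXPA4 and EXPA11 also ended with a pseudocount of 0.25, at adjusted p of 0.055 and 0.051. At 48 to 72 h it was lower for 9 of 10 (55.4% called, 32.3% lower and 23.1% higher), EXPA1 being the exception at 0.41 ± 0.38, and the count was 9 whichever of the 16 libraries was left out. In the last window it was lower for 7 and higher for EXPA1 (69.6% called, 41.6% lower and 28% higher), led by EXPA15 at -4.91 ± 0.24 and EXPA4 at -3.56 ± 0.22. Among the 7, EXPA3 (-0.62) turned to 0.20 after quantile normalisation and lost its call without separated bottom 168 h replicate 2 (-0.42), separated top 168 h replicate 1 (-0.52) or separated top 240 h replicate 1 (-0.52). EXPA11 (-0.85) lost its call without any of 12 of the 24 libraries, and the count over both directions fell to 6 at the lowest. The 7 endodermis markers were lower in this comparison too, 7 of 7 at 48 to 72 h (median -5.06) and 7 of 7 at 120 to 240 h (median -3.63).

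Grafted bottoms exceeded separated bottoms for 7 genes at 6 to 24 h, 9 at 48 to 72 h and 8 at 120 to 240 h, and none was called lower in these windows. Of all genes 34.6% were called in the first (17.5% higher and 17.1% lower), 60.5% in the second (30% and 30.5%) and 70.2% in the third (35.6% and 34.6%). The largest differences were those of EXPA5 (2.01 ± 0.25 on the log2 scale) and EXPA8 (1.96 ± 0.27) in the first, EXPA8 (3.92 ± 0.33) and EXPA10 (3.82 ± 0.35) in the second, and EXPA15 (6.12 ± 0.17) and EXPA4 (4.44 ± 0.16) in the third (limma, adjusted p at most 1.02e-07). Separated bottoms were so low for EXPA15 and EXPA5 that the size of those differences depends on the pseudocount of 1. The same holds for EXPA8 at 6 to 24 h and EXPA10 at 48 to 72 h, with median x of 1.38 and 1.46 in separated bottoms. At 6 h taken alone 3 were called, EXPA1, EXPA6 and EXPA8, beside 7.35% of all genes. At 240 h taken alone 4 were higher in grafted bottoms and 2 lower, beside 28.1% and 25.2% of all genes (53.3% in all). The lower ones were EXPA8 and EXPA1, and EXPA1 was at x of 53.0 and 27.1 in grafted and 108 and 128 in separated bottoms (-1.61 ± 0.38 on the log2 scale, limma, adjusted p = 3.55e-04).

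Few differences were called between grafted and separated tops at first. In the first window limma called none of the 10, beside 0.347% of all genes (0.0337% higher and 0.313% lower), although 4 had an unadjusted p under 0.05. EXPA8, at -1.07 ± 0.27 (log2, adjusted p = 0.0738), was called without grafted top 24 h replicate 1, and EXPA11, at -0.93 ± 0.26 (adjusted p = 0.17), without separated top 24 h replicate 2. At 48 to 72 h EXPA8 alone was called (22.6% of all genes, 8.29% higher and 14.3% lower), higher in grafted tops by 0.94 ± 0.33, and the call did not hold without any of 5 of the 8 libraries, at adjusted p up to 0.28, nor with a pseudocount of 0.25 (adjusted p = 0.069). By the last window 6 genes were higher in grafted tops and none lower (49.3% called, 19.5% higher and 29.8% lower): EXPA3 by 1.62 ± 0.16, EXPA6 by 1.53 ± 0.15, EXPA1 and EXPA15 by 1.21 ± 0.22 and 1.21 ± 0.17, EXPA4 by 0.88 ± 0.16 and EXPA8 by 0.80 ± 0.27. EXPA8 lost its call without grafted top 240 h replicate 1 (0.64, adjusted p = 0.067). At 120 h EXPA6 was at x of 142 and 171 in grafted and 34.3 and 41.3 in separated tops, and EXPA1 at 399.7 and 498 and 84.6 and 94.9. The 2 kinds of top did not overlap for either gene.

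Intact hypocotyls also changed as they aged. From 24 h to the mean of 120 to 240 h, EXPA4 rose by 1.70 ± 0.22 and EXPA15 by 1.65 ± 0.24 on the log2 scale and 6 genes fell (8 of 10 called, beside 21.6% of all genes, 10.2% higher and 11.4% lower; limma, adjusted p = 5.00e-08 and 5.87e-07 for the rises). EXPA15 was at 1.06 without intact 24 h replicate 2. EXPA3 fell by 1.33 and EXPA6 by 1.31 in this comparison. The falls of EXPA5 and EXPA10 lost their calls without intact 24 h replicate 1 (adjusted p = 0.086 and 0.10), and those of EXPA8 and EXPA11 without intact 24 h replicate 2 (0.18 and 0.11). Only that 1 early time, with 2 libraries, stands against the late ones. EXPA4 went from x of 21.4 and 23.3 at 0 h to 218 and 216 at 240 h, so 9.74 times, without a cut.

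Over the 41 group means of log2(x + 1) the members ran together in part. EXPA3 and EXPA5 had a Pearson r of 0.876, EXPA8 and EXPA11 of 0.842 and EXPA3 and EXPA8 of 0.818, whereas EXPA4 had -0.164 with EXPA11 and -0.08 with EXPA5. The group means share tissue and time, so these are descriptions without a test. Among the 15420 other genes whose x averaged 5 or more, the closest to EXPA4 was ABIL3 (r = 0.949), then AT1G03820 (0.946) and AT2G28140 (0.938). EXPA3 ran closest with CER2 (0.944), a gene of cuticular wax synthesis, DRB5 (0.944) and ICR1 (0.942). EXPA10 had LYM1 (0.935), RAB11c (0.911) and ERD3 (0.908), and EXPA15 had NRPD1A (0.945), PIN6 (0.945), a member of the auxin carrier family, and MLP165 (0.939). EXPA8 was nearest to AT3G16370 (0.935), BDG1 (0.909), a gene of cuticle formation, and AT5G48900 (0.909), and EXPA11 to WNK1 (0.879), ABCB19 (0.874), an auxin transporter, and AT3G12710 (0.874). EXPA5 had LPAT5 (0.933), AT2G36810 (0.928) and AT2G46640 (0.922). EXPA6 had AT2G19780 (0.922), SAH7 (0.904) and AT5G26670 (0.893). EXPA9 and EXPA1 had looser neighbours: AT3G60450 (0.831), BGLU25 (0.830) and scpl35 (0.823) for EXPA9, and ALDH3F1 (0.664), AT1G78210 (0.652) and RWA2 (0.651) for EXPA1.

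Of the 15 other alpha-expansin genes, 8 passed the filter. Over 6 to 24 h EXPA20 and EXPA13 were higher than intact in both kinds of top and EXPA14 lower (median log2 difference 0 over the 8, as over all genes). EXPA20 rose most, by 2.87 ± 0.16 in grafted tops, with x of 75.3 and 69.1 in grafted tops, 70.8 and 66.4 in separated tops, 20.8 and 20.6 in grafted bottoms, 6.23 and 2.91 in separated bottoms and 12.1 and 9.23 in intact hypocotyls at 12 h. It was highest in both tops, and higher in joined than in separated bottoms by 1.63 ± 0.16 over the first window (limma, adjusted p = 1.79e-11). At 48 to 72 h top minus bottom was lower in grafted than in separated hypocotyls for 7 of these 8 genes and higher for 1, beside 32.3% and 23.1% of all genes (median -1.68, beside -0.12 over all genes). EXPA7, EXPA17 and EXPA18, found almost only in tops, passed the filter through the tissue where they were high. The filter therefore partly set this count and this median.

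The root hair expansins EXPA7 and EXPA18 and the lateral root gene EXPA17 were found almost only in tops. They were chosen after their values were seen, and no fold is given against groups listed at 0. EXPA7 was at x of 21.0 and 17.3 in separated tops and 1.05 and 1.21 in grafted tops at 72 h, and it was listed at 0 in every intact and bottom library. EXPA17 was at 12.7 and 15.7 and 1.62 and 2.18, and EXPA18 at 19.8 and 20.6 and 1.05 and 1.05. Separated tops stood above grafted tops for all 3. The root hair marker list, which includes EXPA7 and EXPA18, summed to 23.5 to 268 in separated tops and to 0.324 to 27.0 in grafted tops at 48 to 72 h, against at most 0.809 in bottoms and 0.081 in intact hypocotyls, with RSL1 at 0 in that window everywhere. In separated tops EXPA9 exceeded intact by 0.60 ± 0.19 at 120 to 240 h (log2, limma, adjusted p = 0.00523), a call lost without separated top 168 h replicate 1 (0.41, adjusted p = 0.061), while this marker list summed to between 0.081 and 183.5 there, and the part of root hair cells in that value was not tested.

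**Figure D5:**
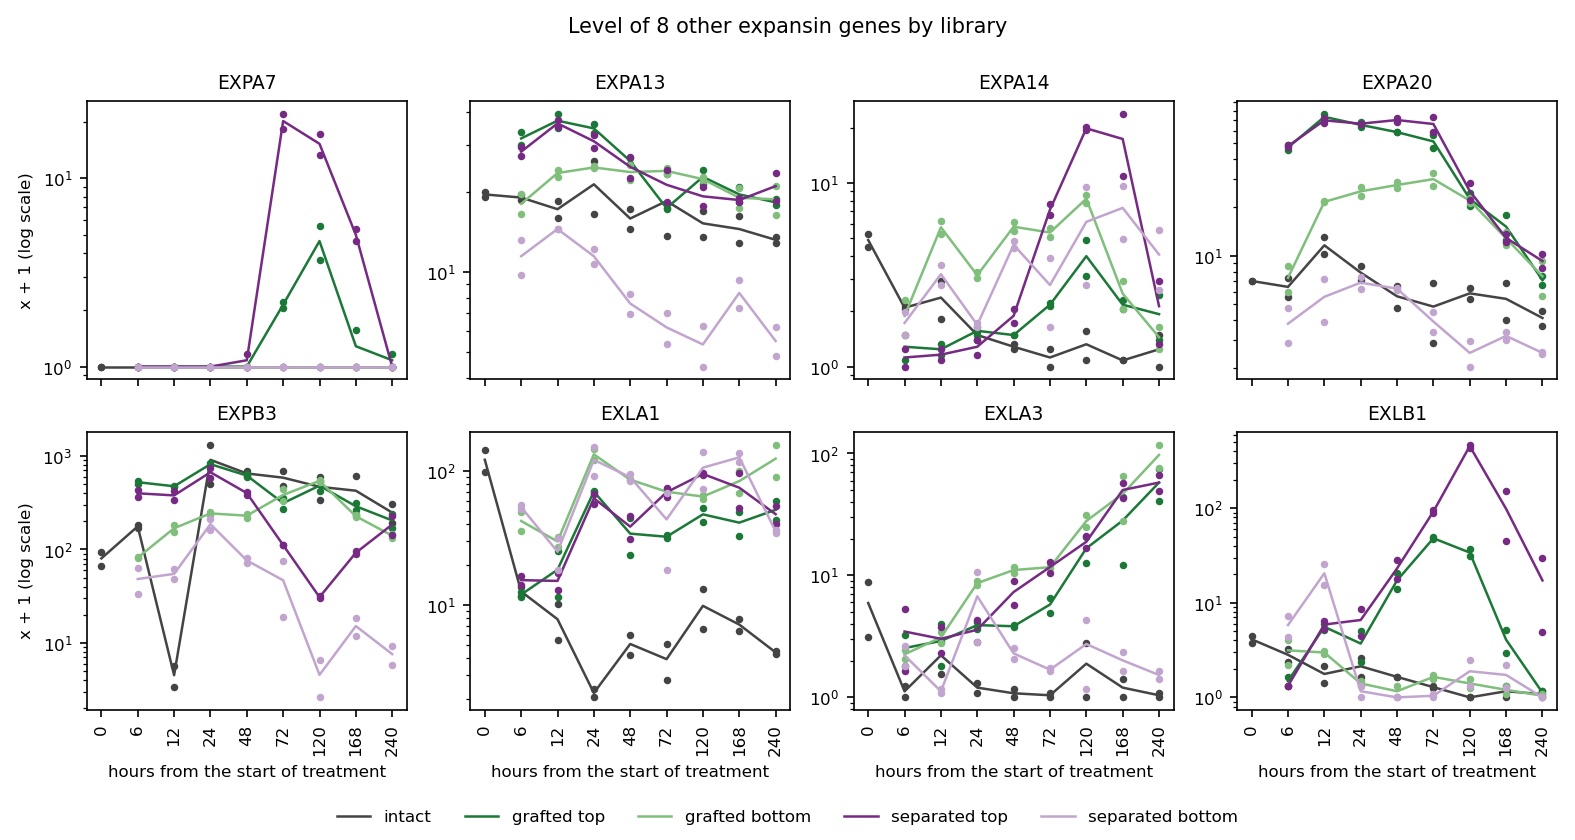
Level as x + 1 on a log axis for 8 other expansin genes, chosen after their values were seen, in the same 5 tissues; points are libraries and lines join means of 2. EXPA20 is high in both tops, EXPA7 appears in tops alone, and EXPB3 sinks in separated bottoms.

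Of the beta-expansins and expansin-like genes, 6 of 10 passed the filter. In separated tops at 120 to 240 h 5 of the 6 were higher than intact and 1 lower, beside 44.7% and 26.7% of all genes (median 2.82, beside 0.17 over all genes), led by EXLB1 at 6.16 ± 0.27, EXLA3 at 4.89 ± 0.32 and EXLA1 at 3.36 ± 0.23 on the log2 scale. EXLB1 reached x of 469.8 and 437 in separated tops at 120 h and was 0.324 and 1.46 in separated bottoms and 0 and 0 in intact hypocotyls. With x under 1 in most intact libraries, the size of the EXLB1 and EXLA3 differences depends on the pseudocount. Both genes reached the filter level in tissue where they were high, so the filter may have set part of this count. EXPB3 fell furthest of the 6: in separated bottoms it was -5.49 ± 0.24 from intact at 120 to 240 h (limma, adjusted p = 6.47e-25), with x of 5.5 and 1.62 there, 525 and 555 in grafted bottoms and 595 and 339.8 in intact hypocotyls at 120 h. EXLA1 went the other way in the same tissue, 3.52 ± 0.23 above intact.

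The genes that set the acidity of the wall were all tested (12). At 6 to 24 h 9 were lower and 3 higher than intact in separated bottoms, beside 30.4% and 24.3% of all genes (median -1.07, beside -0.03 over all genes). In grafted bottoms 5 were lower and 3 higher, beside 28.4% and 20.4% (median -0.45), and in grafted tops 5 and 3, beside 30.8% and 31.7% (median -0.23). Separated tops had 2 lower and 4 higher, beside 30.8% and 32% (median 0.19). AHA2, a plasma membrane proton pump, was higher than intact in grafted tops by 0.99 ± 0.10 over 6 to 24 h (log2, limma, adjusted p = 1.53e-12). At 6 h its x was 1812 and 1934 in grafted tops, 2087 and 2015 in separated tops, 1234 and 1482 in grafted bottoms, 1633 and 1330.4 in separated bottoms and 444 and 534 in intact hypocotyls. All 8 cut libraries were above both intact ones at that time. At 120 h AHA2 was 119 and 94.5 in separated bottoms and 818 and 939 in grafted bottoms, and over 120 to 240 h joined bottoms were higher by 1.76 ± 0.10 on the log2 scale (limma, adjusted p = 1.94e-21). PP2C-D1 (AT5G02760), a phosphatase of the clade that restrains these pumps, was higher in separated tops than in separated bottoms by 3.63 ± 0.27 over 6 to 24 h. SAUR19 to SAUR24, which hold these phosphatases in check, have near-identical copies, so their single values are uncertain; SAUR20 and SAUR24 were lower than intact in separated bottoms at 120 to 240 h, at -2.75 and -2.98.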

How the data were processed

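Poly(A) RNA was sequenced from 82 libraries, 41 groups of 2, and the labels call the replicates independent biological ones. Per the submitters' processing notes, cutadapt 1.8.1, Bowtie2 and TAIR10 were used, with no roles given. The deposited values are treated as a score: whole numbers per gene that the authors normalised and rounded, by library in one table and by library and gene length in the other, as the deposited tables' own names and values show. The libraries came from a stranded kit, per the labels' protocols. The sources used here give neither the normalisation method nor the strand setting of the counting, so no count test was run.

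Each table was multiplied by 1 constant so that the median column sums to 1 M, giving x and x per length. The 20766 of 27416 genes that reached x of 1 in 2 or more libraries were fitted with limma 3.58.1 in R 4.3.3 on log2(x + 1), 1 mean per group over all 82 libraries with 41 residual degrees of freedom and a trended prior, checked on simulated data. Of the 28 contrasts, 27 averaged within-time differences over a window and 1 set intact hypocotyls at 120 to 240 h against 24 h, and 64 single times were fitted too; p-values were adjusted over all tested genes. Comparisons with intact hypocotyls share those libraries. Alternatives were pseudocounts of 0.25 and 5, no filter, median of ratios scaling, quantile normalisation, a replicate block, fits of only the groups compared, and leaving out each library. Depth, estimated for 72 libraries from the spacing of low values, was 7.53 to 20.2 M reads.

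The replicate numbers were checked for pairing: tops and bottoms of grafts with the same number deviated together from their group means with r above 0.1 at 8 of 8 times (0.148 to 0.506), and no other pair of tissues passed 0.1 at more than 6 of 8, though no label says that a number marks a shared batch. All 10 members are named. From the lists of other expansins and wall acidity genes, the 3 called genes with the largest difference could be named per contrast, other named genes are marked, and the 3 genes closest in pattern were named for each member. The members and lists were chosen with earlier results of these data known. Sequences and positions are those of RefSeq TAIR10.1, while the deposited tables hold gene identifiers only.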

Additional observations from a re-analysis of the deposited data

Results flagged for a closer look

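Top minus bottom differed between grafted and separated hypocotyls for 25 of the values followed here, by a limma test of that difference of differences (grafted minus separated, log2 scale, called at an adjusted p under 0.05), where 22%, 55.4% and 69.6% of all genes were called in the 3 windows. At 6 to 24 h these were EXPA8 at -3.03, EXPA10 at -2.18, EXPA5 at -2.12, EXPA1 at -1.66, EXPA3 at -1.56, EXPA11 at -1.08, EXPA6 at -0.64 and EXPA4 at -0.59. At 48 to 72 h they were EXPA10 at -3.50, EXPA3 at -3.33, EXPA8 at -2.98, EXPA15 at -2.19, EXPA5 at -2.06, EXPA6 at -2.05, EXPA11 at -1.98, EXPA4 at -1.96 and EXPA9 at -1.12. At 120 to 240 h they were EXPA15 at -4.91, EXPA4 at -3.56, EXPA10 at -1.90, EXPA9 at -1.82, EXPA6 at -1.41, EXPA11 at -0.85, EXPA3 at -0.62 and, in the other direction, EXPA1 at 0.89. EXPA3 in the last window turned sign after quantile normalisation (0.20). Leaving out single libraries ended the calls of EXPA4, EXPA11 and EXPA6 at 6 to 24 h in 15, 7 and 6 of 24 cases, and those of EXPA11 and EXPA3 at 120 to 240 h in 12 and 3 of 24. Groups of 2 libraries are too small for a test of single outlying libraries.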

How the results depend on the processing

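Counts of called members changed when single libraries were left out in 21 of 28 comparisons, by at most 2 members except for the difference of differences at 6 to 24 h. Against intact the widest ranges were 6 to 9 in grafted tops and 6 to 8 in separated tops at 6 to 24 h, 6 to 8 in separated tops at 120 to 240 h, and 8 to 10 in separated tops and in separated bottoms at 48 to 72 h. Grafted against separated tops at 48 to 72 h gave 1 member, and 2 with median of ratios scaling, quantile normalisation, a pseudocount of 5 or the replicate block, but 0 with no filter, a pseudocount of 0.25 or only the groups compared. At 6 to 24 h the same comparison gave 0, with 1 at a pseudocount of 5 and 2 under the block. Grafted tops against bottoms at 48 to 72 h gave 2, with 4 at a pseudocount of 5, and at 120 to 240 h gave 3, with 5 when only the groups compared were fitted. Without single libraries the counts ran from 0 to 2 and from 0 to 1 for grafted against separated tops at 48 to 72 h and 6 to 24 h, from 2 to 4 for the sides of a graft at 48 to 72 h, and from 5 to 8 for the difference of differences at 6 to 24 h. The replicate block ended no call of the 10 members and added 10 among 270 values. For the tops at 6 to 24 h it added EXPA8 and EXPA11. Grafted and separated tops of the same number deviated together with r from -0.014 to 0.494, above 0.1 at 6 of 8 times. No label says what libraries of the same number share.

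EXPA3 reversed in the difference of differences at 120 to 240 h, from -0.62 to 0.20 (not called) after quantile normalisation, and stood at -0.14 with a pseudocount of 5; EXPA11 there went from -0.85 to -0.17 after quantile normalisation. The causes were not tested. Quantile normalisation moved the median of all genes by over 0.1 in 7 comparisons, for example in separated tops against bottoms at 120 to 240 h from 0.25 to 0.04, and ended 13 member calls. Among all called genes the share that was higher moved by over 10 points in 5 comparisons. With median of ratios scaling it went from 47.4% to 57.6% in grafted bottoms against intact at 120 to 240 h and from 36.8% to 55.9% in grafted against separated tops at 48 to 72 h. With quantile normalisation at 120 to 240 h it went from 55.3% to 44.2% in grafted tops against intact, from 62.6% to 51.8% in separated tops against intact and from 62.0% to 52.0% in separated tops against bottoms. Leaving out single libraries ended 85 and added 32 of 3280 member values. Values at single times and over other lists were not recomputed. Depth limits EXPA15 and EXPA5 in separated bottoms, where x stays under 1. At 120 to 240 h EXPA10, EXPA3, EXPA11 and EXPA8 were low there too, with medians of x of 0.566, 1.34, 1.42 and 1.70.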
